A study of Drosophila melanogaster with 4 samples.

Results

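The small RNAs described here are all listed sequences of 20 to 24 nt whose first base is C, read from material bound to the Argonaute proteins Ago2 and Ago1 of the fruit fly. They were chosen by length and first base alone, and each sequence was counted once per library. They number 760 of 7181 distinct sequences, or of 4008 sequences in that length range, beside 1161 that start with A, 698 with G and 1389 with T. The Ago2 libraries listed 524 of them at 30 d of age and 418 at 3 d, against 414 and 452 in the Ago1 libraries. All 4 libraries shared 236, while 274 stood in exactly 1 library and 320 had at most 3 reads in total. The sharing and low-read counts were made for C-start sequences alone, and the libraries differ in depth. These counts therefore show nothing particular to C.

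The flies were whole males carrying a FLAG-HA tag on Ago2, and the Ago1 libraries came from tagged flies as well. Tagged Ago2 was pulled down with anti-FLAG M2 beads and Ago1 with an antibody to the protein itself, so the 2 proteins were taken with different reagents, and how many flies were pooled is not given in the sources used here. There was 1 library for each of 4 groups, namely Ago2 at 30 d, Ago2 at 3 d, Ago1 at 30 d and Ago1 at 3 d. A difference between libraries therefore has no replicate check, no test across conditions was made, and the 95% intervals reflect counting error alone. In all, 34554191 and 13491805 reads were listed with Ago2 at 30 d and 3 d, and 26451651 and 26636441 with Ago1. Abundance is given as RPM, reads per 1000000 reads listed in a library, so it is a share of reads and not an amount of RNA.

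A fly miRNA precursor is cut into a duplex of a strand from its 5' side, named 5p, and one from its 3' side, named 3p. As a rule one strand, the guide, is kept by Ago1 and represses mRNAs through its seed, the bases 2 to 8 from the 5' end, while the other strand, the passenger, is lost or enters Ago2. Loading of Ago2 depends on the pairing of the duplex and on the first base, for which C is known to be favoured, whereas Ago1 is known for guides that start with U. RNAs in Ago2 are methylated at the 3' end by Hen1, and many guides in Ago1 are shortened at the 3' end by the nuclease Nibbler.

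Listed sequences that match over their overlap and differ in their ends were joined into an arm, taken as a strand of a hairpin. The 760 sequences belonged to 232 arms, of which 103 had a C-start sequence as their most abundant form. The miRNA names are recalled background knowledge attached to the sequences and were not read from the files. The forms below are those on which the results turn, written 5' to 3' with T for U, and capitals mark the seed. The arms with a larger share of the Ago1 reads are shown with these forms, all from chromosome arm 3R except miR-210-3p, which lies on X.
miR-10-3p: cAAATTCGgttctagagaggttt
miR-11-3p: cATCACAGtctgagttcttgct
miR-34-3p: cAGCCACTatcttcactgccgcc
miR-210-3p: cTTGTGCGtgtgacagcggct
The arms with a larger share of the Ago2 reads come from 3L (bantam-5p), 2L (miR-275-5p, miR-100-3p, miR-959-5p and miR-2a-2-5p) and X (miR-985-3p). For miR-275-5p the form of 23 nt is printed, while the form of 22 nt held 64.1% of its Ago2 reads at 30 d and 46.4% at 3 d.
bantam-5p: cCGGTTTTcgatttggtttgact
miR-275-5p: cGCGCTAAtcagtgaccggggct
miR-100-3p: cAAGACCGgcattatgggagtc
miR-985-3p: cAAATGTTccaatggtcgggca
miR-959-5p: cTTAGTACtcgggttgataaa
miR-2a-2-5p: cCTCATCAagtggttgtgata
The arms below are abundant with both proteins or differed between the ages, and come from 2L (miR-305-3p), 3R (miR-252-5p, miR-11-5p) and 3L (miR-263b-5p).
miR-305-3p: cGGCACATgttgaagtacactca
miR-252-5p: cTAAGTACtagtgccgcaggag
miR-11-5p: cAAGAACTttctctgtgacccg
miR-263b-5p: cTTGGCACtgggagaattcacag

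Reads starting with C took nearly the same share of all 4 libraries. They held 61724 and 60848 RPM with Ago2 at 30 d and 3 d, and 62687 and 63827 RPM with Ago1, which is 6.17%, 6.08%, 6.27% and 6.38% of the listed reads in the same order. Their Ago2 over Ago1 log2 ratio was -0.02 (-0.025 to -0.019) at 30 d and -0.07 (-0.073 to -0.065) at 3 d, and the age ratio, 30 d over 3 d, was 0.02 with Ago2 and -0.03 with Ago1. The other first bases differed much more between the proteins. Reads starting with A had a log2 ratio of 1.66 at 30 d and 1.61 at 3 d, those with G 0.66 and 0.89, and those with T -1.45 and -1.10. The difference of the Ago2 over Ago1 log2 ratios, 30 d minus 3 d, was 0.05 (0.042 to 0.051) for C, 0.05 for A, -0.23 for G and -0.35 for T.

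The level of the C-start reads in the Ago2 libraries rests on what they are divided by. An A-start arm, recalled as miR-263a-5p, leads the Ago2 libraries, with 88.6% and 90.4% of the A-start reads at 30 d and 3 d. With Ago1 another arm led the A-start reads, at 54.8% and 45.7%. Without the miR-263a-5p arm in the reads and the total, the A-start share fell from 57.6% and 52.2% to 14.6% and 9.70% with Ago2. With Ago1 it fell from 18.2% and 17.1% to 15.1% and 12.7%. With the reads of the miR-263a-5p arm left out of the total, C-start reads made up 13.7% of the Ago2 reads against 6.51% of the Ago1 reads at 30 d, and 11.8% against 6.72% at 3 d. The Ago2 over Ago1 log2 ratio was then 1.07 at 30 d and 0.81 at 3 d for C, and 1.69 and 1.74 for G. For T it was -0.36 and -0.22, and for A -0.05 and -0.39. C-start reads themselves were spread over several arms. The most abundant arm took 20.7% (miR-305-3p) and 26.2% (miR-8-5p) of them with Ago2 at 30 d and 3 d, and 20.9% (miR-11-3p) and 26.7% (miR-10-3p) with Ago1.

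**Figure D1:**
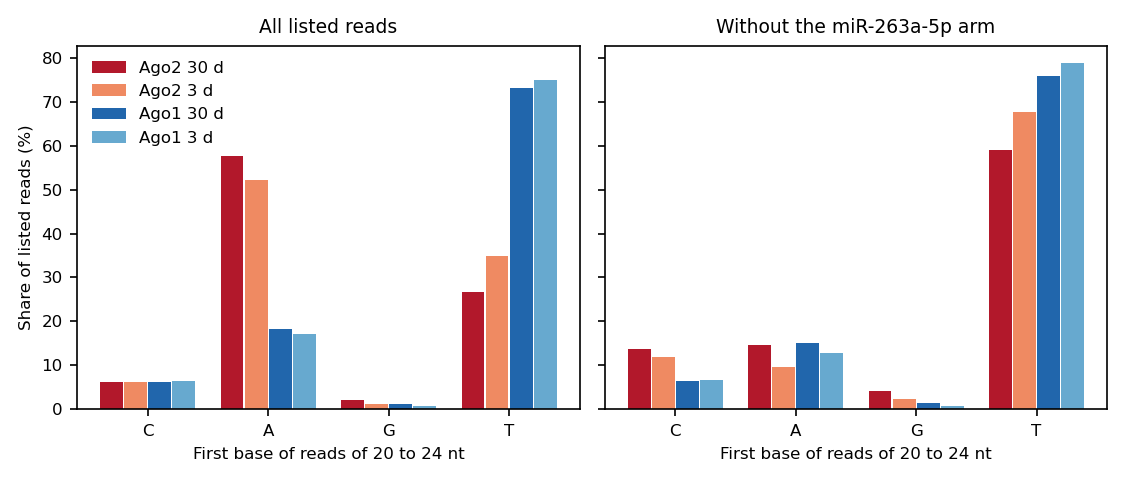
Share of listed reads (y axis, %) by first base of the reads of 20 to 24 nt (x axis) in 4 libraries, bars from left to right Ago2 30 d, Ago2 3 d, Ago1 30 d and Ago1 3 d, with all listed reads (left) and with the miR-263a-5p arm left out of the reads and the total (right). The C bars lie between 6.08% and 6.38% on the left, and on the right the Ago2 bars are at 13.7% and 11.8% and the Ago1 bars at 6.51% and 6.72%.

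The sequences behind the even total differed between the proteins. Among C-start sequences averaging 100 RPM or more over the libraries compared, 18 of 37 were at least 2-fold higher with Ago2 than with Ago1 at 30 d and 9 were at least 2-fold lower, on the scale of log2(RPM + 1). Over all first bases 22.7% were higher and 66.5% lower at 30 d. At 3 d, 17 of 35 C-start sequences were higher and 10 lower, against 22.7% higher and 67.6% lower over all first bases. In percent, 48.6% of the C-start sequences were higher at each age, whereas 24.3% at 30 d and 28.6% at 3 d were lower. The minimum is a mean over the libraries compared, so a sequence can pass it through a single library. At 30 d miR-100-3p of 22 nt passed with 591 RPM with Ago2 and 3.02 RPM with Ago1, and miR-281-3p of 23 nt with 9.78 and 674 RPM. For such sequences a call past 2-fold was fixed by the minimum. The counts and medians take them in, for C and for the other first bases alike. The median log2 ratio of the C-start sequences was 0.93 at 30 d and 0.76 at 3 d, while that of all other sequences was -3.40 and -3.60. Sequences starting with G had medians of 1.59 and 2.11, so a positive median was not particular to C.

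These counts move with the scaling. Without the pseudocount of 1 RPM, TMM raises each Ago2 over Ago1 log2 ratio by 1.15 at 30 d and 0.91 at 3 d. The median of ratios raises it by 1.06 and 1.23. With the pseudocount, arms rare with Ago1 rise less, for example miR-100-3p from 7.16 to 8.19 by TMM at 30 d. Both scalings change which sequences reach 100 RPM. At 30 d, 34 of 44 C-start sequences were higher and 7 lower by TMM, against 35.8% higher and 52.6% lower over all first bases, and 32 of 43 were higher and 7 lower by the median of ratios, against 35% and 53%. At 3 d, 24 of 34 were higher and 7 lower by TMM, against 31.7% and 59.8% over all first bases, and 27 of 37 were higher and 6 lower by the median of ratios, against 36.1% and 55%. The C-start ratios of miR-11-5p, miR-988-3p, miR-263b-5p, miR-277-5p, miR-956-3p and miR-184-3p were negative at 3 d and turned positive by both of these scalings. Those of miR-11-5p, miR-277-5p and miR-184-3p did so at 30 d as well. That of miR-92a-3p at 3 d, -0.95, turned positive by the median of ratios alone, at 0.27.

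Several passenger strands held a larger share of the Ago2 libraries. bantam-5p, the partner of the growth-promoting guide bantam-3p, had 7876 and 8963 RPM with Ago2 at 30 d and 3 d, against 329 and 497 RPM with Ago1. Its Ago2 over Ago1 log2 ratio was 4.58 (4.55 to 4.61) at 30 d and 4.17 (4.15 to 4.20) at 3 d. miR-278-5p, the partner of a guide known for its role in energy homeostasis, had 5739 and 4993 RPM with Ago2 against 134 and 118 RPM with Ago1, a log2 ratio of 5.41 and 5.39. Both arms lay higher in each Ago2 library than in each Ago1 library by over 10 times.

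miR-275-5p was the larger strand of its hairpin with Ago2 and the smaller one with Ago1. Its partner, miR-275-3p, starts with T. miR-275-5p had 2358 and 2472 RPM with Ago2 at 30 d and 3 d, against 211 and 240 RPM with Ago1. Of the reads of both strands, it held 93.6% and 94.5% with Ago2 and 2.53% and 2.47% with Ago1. miR-8-5p, opposite the guide miR-8-3p that acts in fat body growth control, held 40.7% and 60.4% of the reads of its hairpin with Ago2, against 5.65% and 6.76% with Ago1. Its own level was close in 3 libraries, at 9948 RPM with Ago2 at 30 d against 9653 and 9580 RPM with Ago1 at 30 d and 3 d, and higher with Ago2 at 3 d, at 15938 RPM. Its Ago2 over Ago1 log2 ratio was 0.04 at 30 d and 0.73 at 3 d per listed reads, but 1.19 and 1.65 by TMM and 1.11 and 1.965 by the median of ratios, which is over 2-fold.

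The highest ratios belonged to arms that were rare with Ago1. miR-100-3p, the partner of a guide from the let-7 complex, had 635 and 403 RPM with Ago2 at 30 d and 3 d, against 3.44 and 3.15 RPM with Ago1, a log2 ratio of 7.16 and 6.60. miR-2a-2-5p, opposite a guide of the K box family, had 280 and 238 RPM with Ago2 and 1.78 and 2.06 RPM with Ago1. miR-184-5p had 938 and 996 RPM with Ago2, against 18.0 and 21.2 RPM with Ago1. It remained a small part of its hairpin with Ago2 too, at 1.64% and 1.57% of the reads of both strands, against 0.0176% and 0.0156% with Ago1. An unnamed C-start arm had 460 and 259 RPM with Ago2 against 5.56 and 2.89 RPM with Ago1. For arms with so few Ago1 reads the pseudocount of 1 RPM lowers the ratio, which can then lie below its interval, as for miR-100-3p at 3 d (6.69 to 7.33).

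A larger share with Ago2 was also seen for 4 further arms. miR-284-5p had 1051 and 787 RPM with Ago2 at 30 d and 3 d, counting its forms of 20 to 24 nt alone, against 186 and 220 RPM with Ago1. miR-263a-3p, the partner of the leading Ago2 arm, had 189 and 135 RPM with Ago2, against 36.7 and 36.2 RPM with Ago1. miR-985-3p had 167 and 607 RPM with Ago2 and 2.87 and 5.82 RPM with Ago1, and miR-959-5p had 190 and 561 RPM with Ago2 and 7.22 and 10.8 RPM with Ago1.

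Taken as single sequences, the 5 highest log2 ratios of Ago2 over Ago1 at 30 d were those of miR-100-3p of 22 nt at 7.20, miR-184-5p of 21 nt at 6.78, the unnamed sequence at 6.13, miR-275-5p of 22 nt at 6.07 and miR-278-5p of 23 nt at 5.60. At 3 d they were those of miR-100-3p at 6.65, miR-985-3p at 6.52, miR-184-5p of 21 nt at 6.40, miR-959-5p at 6.32 and the unnamed sequence at 6.06. At the other end at 30 d stood miR-210-3p of 21 nt at -7.41 and of 22 nt at -5.72, miR-281-3p of 23 nt at -5.97, miR-11-3p of 21 nt at -3.57 and miR-34-3p of 23 nt at -3.49. The same 5 sequences were lowest at 3 d, at -6.46, -5.91, -6.07, -3.90 and -4.21 in that order.

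**Figure D2:**
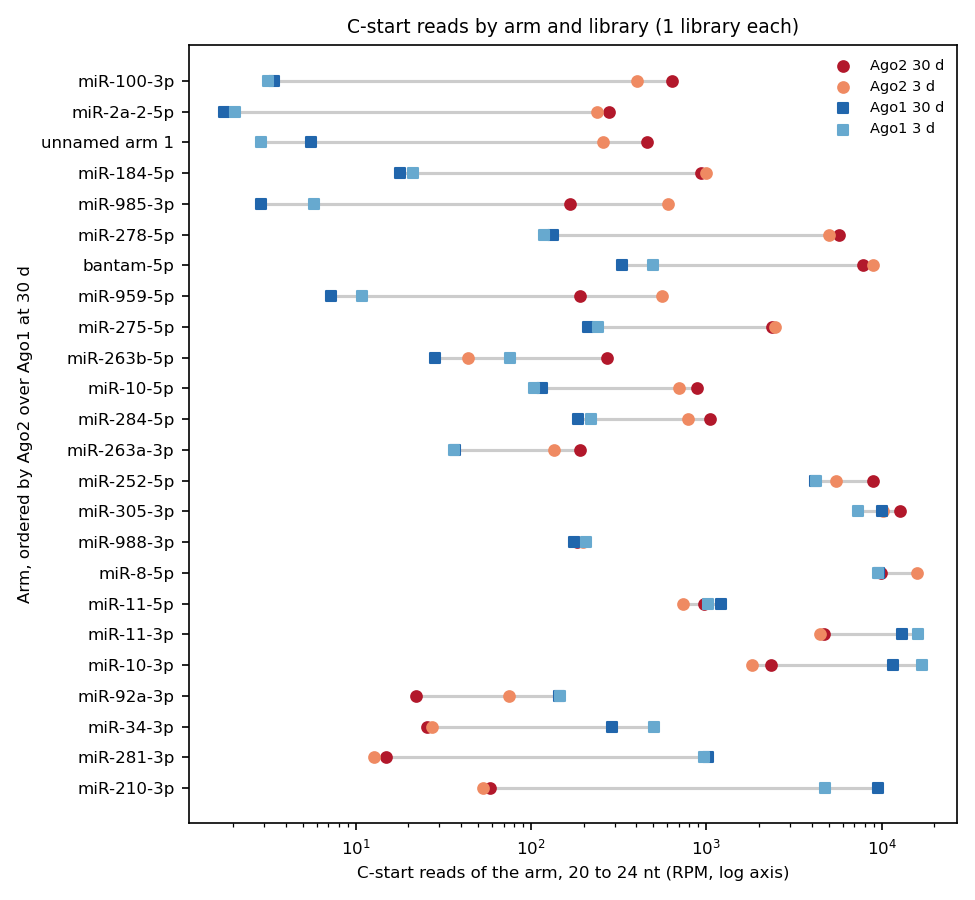
RPM of the C-start reads of 20 to 24 nt (x axis, log scale) for the 24 most abundant arms (y axis, ordered by the Ago2 over Ago1 ratio at 30 d), with circles for Ago2 and squares for Ago1 and 1 point per library. miR-100-3p at the top lies at 635 and 403 RPM with Ago2 against 3.44 and 3.15 RPM with Ago1, and miR-210-3p at the bottom at 58.3 and 53.1 RPM with Ago2 against 9590 and 4746 RPM with Ago1.

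The C-start reads of Ago1 came instead from miR-10-3p, miR-11-3p and miR-210-3p, along with miR-8-5p and miR-305-3p. These 5 arms held 86.3% of the Ago1 C-start reads at 30 d and 86.0% at 3 d, while the leading 5 arms with Ago2 held 73.3% and 75.0%. miR-10-3p, from the Hox gene cluster, had 2342 and 1815 RPM with Ago2 at 30 d and 3 d, against 11675 and 17011 RPM with Ago1. Its Ago2 over Ago1 log2 ratio was -2.32 (-2.33 to -2.31) at 30 d and -3.23 (-3.25 to -3.21) at 3 d. Of the reads of both strands of its hairpin, miR-10-3p held 3.87% and 4.39% with Ago2, against 30.5% and 46.4% with Ago1. Its partner miR-10-5p starts with A and was the larger strand in all 4 libraries.

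miR-11-3p, known to restrain cell death genes, had 4685 and 4460 RPM with Ago2 at 30 d and 3 d, against 13111 and 16226 RPM with Ago1. The log2 ratio was -1.48 at 30 d and -1.86 at 3 d, but -0.34 and -0.95 by TMM, which is under 2-fold. It carries the seed ATCACAG, shared by 60 listed sequences of 20 to 24 nt in 9 arms, of which 9 sequences start with C and 49 with T. Reads with this seed summed to 4836 and 4550 RPM with Ago2 and to 19754 and 23377 RPM with Ago1. Of them, 97.0% and 98.0% started with C with Ago2, against 66.5% and 69.5% with Ago1. In the Ago2 libraries the reads with this seed were thus nearly all of the C-start kind.

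miR-210-3p and miR-281-3p had the lowest ratios. The C-start forms of miR-210-3p, a miRNA found in the fly visual and clock systems, had 58.3 and 53.1 RPM with Ago2 at 30 d and 3 d, against 9590 and 4746 RPM with Ago1. The log2 ratio was -7.34 (-7.43 to -7.30) at 30 d and -6.46 (-6.59 to -6.38) at 3 d. miR-281-3p had 15.0 and 12.7 RPM with Ago2, against 1018 and 976 RPM with Ago1. miR-34-3p, the partner of the guide miR-34-5p known from studies of fly ageing, had 25.4 and 27.3 RPM with Ago2 and 291 and 501 RPM with Ago1. miR-34-3p and miR-10-3p, both on the list of passenger strands below, thus had a larger share with Ago1, as did the C-start reads of the guide miR-92a-3p at 22.2 and 75.4 RPM with Ago2 against 144 and 146 RPM with Ago1.

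Some abundant arms had nearer levels with both proteins per listed reads. miR-305-3p, from the hairpin of a miRNA that acts in gut stem cells, had 12777 and 10232 RPM with Ago2 at 30 d and 3 d, against 10083 and 7318 RPM with Ago1. Its Ago2 over Ago1 log2 ratio was 0.34 at 30 d and 0.48 at 3 d, but 1.49 and 1.40 by TMM and 1.40 and 1.71 by the median of ratios. miR-252-5p had 8906 and 5523 RPM with Ago2 and 4190 and 4197 RPM with Ago1, a log2 ratio of 1.09 at 30 d and 0.40 at 3 d, or 2.23 and 1.31 by TMM and 2.15 and 1.63 by the median of ratios. miR-305-3p and miR-252-5p were thus over 2-fold higher with Ago2 at both ages by these scalings. miR-988-3p had 182 and 198 RPM with Ago2 and 176 and 206 RPM with Ago1, and was over 2-fold higher with Ago2 by TMM at 30 d, at 1.19, and by the median of ratios at both ages, at 1.11 and 1.17. miR-11-5p had 976 and 738 RPM with Ago2 and 1219 and 1021 RPM with Ago1. Both strands of mir-11 start with C, and the 5p strand held 16.9% and 13.8% of the reads of the hairpin with Ago2, against 8.38% and 5.69% with Ago1.

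A list of 19 passenger strand names, chosen with earlier results of these data known, gave 12 arms led by a C-start form, of which 8 passed the minimum of 100 RPM for Ago2 against Ago1 at both ages. At both ages 5 were at least 2-fold higher with Ago2 (bantam-5p, miR-184-5p, miR-100-3p, miR-275-5p and miR-278-5p), 2 were lower (miR-10-3p and miR-34-3p) and miR-8-5p was within 2-fold. Of these, miR-184-5p and miR-100-3p passed the minimum through Ago2 alone and miR-34-3p through Ago1 alone. Their calls were thus fixed by the minimum, and the median below includes them. bantam-5p, miR-275-5p, miR-278-5p and miR-10-3p were over 100 RPM with both proteins. Over all arms of 20 to 24 nt with any first base, 30.2% of 86 were higher and 61.6% lower at 30 d, and 25% of 88 were higher and 61.4% lower at 3 d. With TMM or the median of ratios miR-8-5p joined the higher members at both ages, which made 6 higher and 2 lower. Of all arms, 37.2% at 30 d and 35.8% at 3 d were then higher and 53.5% and 54.3% lower by TMM, and 36.5% and 40.7% were higher and 54.1% and 50% lower by the median of ratios. The median log2 ratio of the 8 was 4.03 at 30 d and 3.76 at 3 d, while the median over all arms tested was -2.60 and -3.19. With age none of them passed 2-fold, of 7 measured with Ago2 and 6 with Ago1, against 12.9% of all arms higher and 11.3% lower with Ago2, and 2.47% and 1.23% with Ago1. By TMM 1 of 7, miR-100-3p, was higher at 30 d with Ago2, at 1.02, against 27.5% of all arms higher and 7.25% lower, while by the median of ratios none of 7 passed 2-fold, against 11.4% and 10%. A second list of 7 guides and strands with no settled role gave 3 arms, miR-305-3p, miR-988-3p and miR-985-3p, of which miR-985-3p was higher with Ago2 at 3 d and missed the minimum at 30 d. miR-985-3p passed at 3 d through Ago2 alone as well. By TMM all 3 were higher at 30 d and 2 at 3 d, and by the median of ratios all 3 were higher at both ages.

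Nearly all C-start reads began at the usual start of an arm that itself starts with C. Such reads were 97.5% and 97.8% of the C-start reads with Ago2 at 30 d and 3 d, and 98.6% and 98.8% with Ago1. The usual start is that of the most abundant sequence in these same libraries, so a high share is in part built in. It was computed for C-start reads alone and is not shown to be particular to C. Arms whose most abundant form starts with another base gave 2.001% and 1.69% with Ago2 and 0.681% and 0.708% with Ago1. The largest of these was miR-10-5p, whose usual form starts with A. Its C-start forms begin 1 or 2 bases further in and had 890 and 697 RPM with Ago2, against 116 and 105 RPM with Ago1, which was 1.52% and 1.74% of its reads with Ago2 and 0.432% and 0.525% with Ago1. miR-10-5p and miR-11-5p, like miR-92a-3p, miR-263a-3p and miR-2a-2-5p, were chosen for description after their values had been seen.

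Within some arms the share of C-start forms itself differed between the proteins, while in other abundant arms it was nearly the same. It was 98.16% or more in every library for miR-8-5p, miR-305-3p, bantam-5p and miR-278-5p. How many arms differ in this way was not counted. miR-210-3p has a C-start form and a form that begins 1 base later with T, so their seeds differ. They are shown here with the seed in capitals, both from X.
miR-210-3p, C-start form: cTTGTGCGtgtgacagcggct
miR-210-3p, T-start form: tTGTGCGTgtgacagcggct
The C-start forms made up 12.6% (12.1% to 13.1%) and 23.4% (21.96% to 25.0%) of the reads of miR-210-3p with Ago2 at 30 d and 3 d, against 87.0% and 79.8% with Ago1. The T-start forms had 403 and 173 RPM with Ago2, against 1437 and 1200 RPM with Ago1, so the gap between the proteins was far smaller for them than for the C-start forms.

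miR-959-5p and miR-2a-2-5p showed the opposite order. C-start forms were 93.7% and 93.9% of the reads of miR-959-5p with Ago2 at 30 d and 3 d, against 23.2% and 18.4% with Ago1, where forms that begin 1 base later with T held 68.6% and 54.9%. For miR-2a-2-5p the share was 88.0% and 89.9% with Ago2 against 14.6% and 18.3% with Ago1, and the forms 1 base longer at the 5' end start with G. That arm had few reads with Ago1, so its share there has intervals of 11.2% to 18.9% at 30 d and 14.4% to 22.9% at 3 d. miR-281-3p lay at 74.9% and 69.6% with Ago2 and at 63.8% and 66.7% with Ago1. The start of miR-252-5p was more uniform with Ago2, at 98.0% and 97.7%, than with Ago1, at 92.3% and 86.6%.

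**Figure D3:**
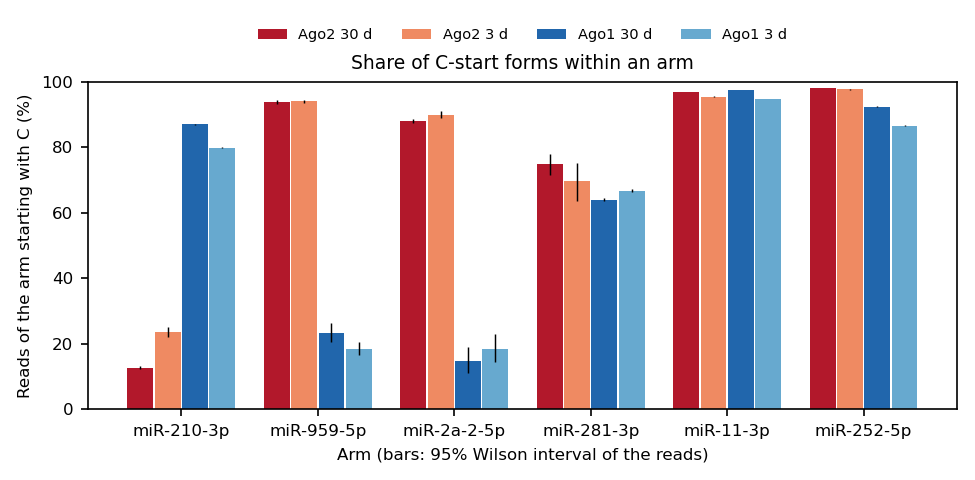
Share of the reads of an arm that start with C (y axis, %, reads of 20 to 24 nt) for 6 arms (x axis), bars from left to right Ago2 30 d, Ago2 3 d, Ago1 30 d and Ago1 3 d, with 95% Wilson intervals of the reads as error bars. miR-210-3p stands at 12.6% and 23.4% with Ago2 against 87.0% and 79.8% with Ago1, and miR-959-5p at 93.7% and 93.9% against 23.2% and 18.4%.

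The other bases of the C-start reads differed between the proteins as well. The second base was C in 27.3% and 27.6% of the C-start reads with Ago2 at 30 d and 3 d, against 2.14% and 2.23% with Ago1, and bantam-5p is an abundant arm that starts with CC. It was A in 30.8% and 39.7% with Ago2, against 57.8% and 70.0% with Ago1, whose leading arms miR-10-3p and miR-11-3p both start with CA. The last base was T in 30.8% and 30.3% with Ago2 and in 52.5% and 55.4% with Ago1. The G and C content of the reads ranged from 47.1% to 49.8% over the 4 libraries.

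C-start reads were most often 22 nt long, and on average shorter in the Ago1 library of 30 d than in the other 3. Forms of 22 nt held 53.7% and 56.4% of them with Ago2 at 30 d and 3 d, and 47.0% and 49.5% with Ago1. Forms of 21 nt held 11.5% and 8.28% with Ago2, against 28.4% and 16.8% with Ago1. Forms of 23 nt held 30.9% and 33.2% with Ago2 and 21.98% and 32.1% with Ago1. The mean length was 22.16 and 22.23 nt with Ago2, against 21.91 and 22.14 nt with Ago1. It was lower at 30 d than at 3 d by 0.073 nt with Ago2 and by 0.24 nt with Ago1. Mean lengths of reads starting with A, G or T were lower at 30 d with each protein as well, for example 22.02 against 22.09 nt for T with Ago2 and 22.25 against 22.31 nt with Ago1.

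The mix of arms differed between the ages. With Ago1, miR-210-3p, mostly 21 nt long, held 15.3% of the C-start reads at 30 d against 7.44% at 3 d. miR-10-3p, mostly 23 nt long, held 18.6% against 26.7%. The share of miR-11-3p, itself short at 21.54 and 21.69 nt, went the other way, at 20.9% against 25.4%. How much of the lower mean length the mix accounts for was not computed. Lengths also differed within arms, whose forms share a start and differ at the 3' end. Among arms with at least 100 C-start reads in both libraries compared, 22 of 29 had a lower mean length at 30 d than at 3 d with Ago2 and 18 of 26 with Ago1. The medians were small, at -0.031 and -0.021 nt. Arms of the other first bases were not counted in this way, so the count is not shown to be particular to C. miR-305-3p had one of the widest shifts. Its main forms are shown with the last base in capitals, from 2L.
miR-305-3p, 23 nt: cggcacatgttgaagtacactcA
miR-305-3p, 22 nt: cggcacatgttgaagtacactC
miR-305-3p, 21 nt: cggcacatgttgaagtacacT
miR-305-3p, 20 nt: cggcacatgttgaagtacaC
The form of 23 nt held 35.7% and 51.7% of its reads with Ago2 at 30 d and 3 d, and 34.2% and 55.1% with Ago1. The form of 21 nt held 22.1% and 14.3% with Ago2, and 25.8% and 9.22% with Ago1. The 3' end was thus shorter at 30 d with both proteins, and the mean length was 22.05 and 22.34 nt with Ago2 and 22.07 and 22.47 nt with Ago1.

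The share of short forms differed between the proteins in other arms. For miR-11-3p the form of 21 nt held 8.57% and 6.74% of the reads with Ago2 at 30 d and 3 d, against 36.4% and 27.7% with Ago1. For miR-988-3p it held 19.7% and 19.9% with Ago2, against 61.3% and 59.8% with Ago1. miR-263b-5p was mostly 23 nt with Ago2, at 91.7% and 94.1%, against 33.1% and 34.4% with Ago1.

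Other arms were shorter with Ago2. The form of 23 nt held 35.4% and 53.3% of miR-275-5p with Ago2 at 30 d and 3 d, against 89.5% and 89.2% with Ago1. For miR-184-5p the form of 21 nt held 62.1% and 53.4% with Ago2, against 23.8% and 25.1% with Ago1. Over the C-start arms measured, the mean length was lower with Ago2 than with Ago1 for 17 of 27 at 30 d and 15 of 26 at 3 d. No common direction was seen among them, and arms of other first bases were not counted.

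**Figure D4:**
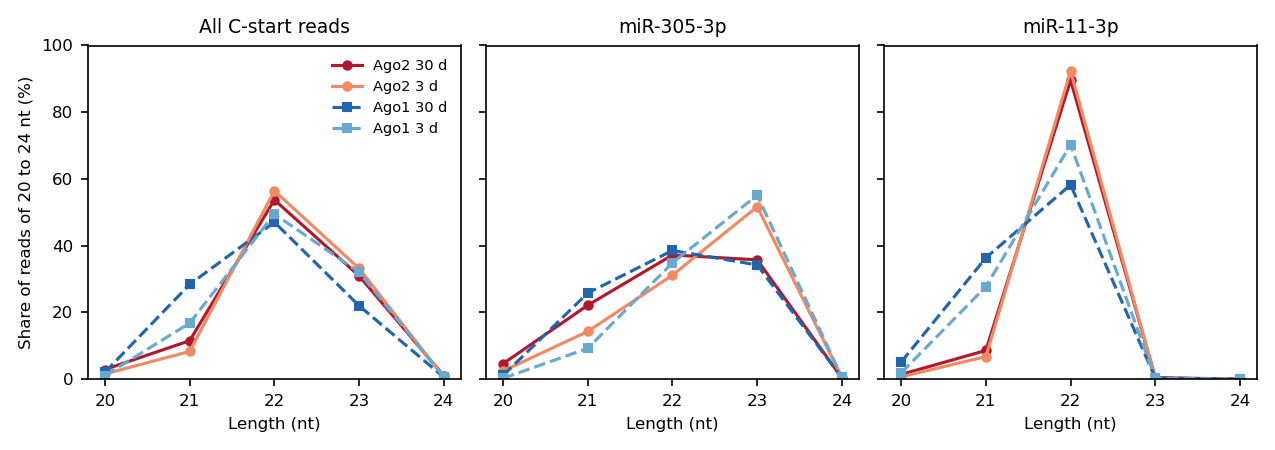
Length (x axis, nt) against the share of reads of 20 to 24 nt (y axis, %) for all C-start reads, miR-305-3p and miR-11-3p, with 1 line per library, solid for Ago2 and dashed for Ago1. The miR-305-3p lines of 30 d lie below those of 3 d at 23 nt (35.7% against 51.7% with Ago2, 34.2% against 55.1% with Ago1), and miR-11-3p at 21 nt lies at 8.57% and 6.74% with Ago2 and 36.4% and 27.7% with Ago1.

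Between the ages few C-start sequences passed 2-fold. With Ago2, 5 of 37 were at least 2-fold higher at 30 d and 2 were lower, against 18.3% higher and 6.09% lower over all first bases. Of 40 sequences each, 9 were higher and 2 lower by TMM, against 34.3% and 3.65% over all first bases, and 3 and 2 by the median of ratios, against 15.9% and 5.8%. With Ago1, 3 of 30 were higher and 1 lower, against 9.5% and 8.5% over all first bases, with 3 of 22 higher and 0 lower by either other scaling, against 11.5% and 6.06% by TMM and 11.1% and 6.17% by the median of ratios. The shares of C-start sequences were near or below the background per listed reads. The age comparisons of Ago2 and Ago1 use different libraries, while those between the proteins at one age use the same libraries as the age comparisons.

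miR-985-3p and miR-959-5p were the C-start arms lower at 30 d with Ago2 by over 2-fold. miR-985-3p had 167 RPM with Ago2 at 30 d against 607 RPM at 3 d, so its log2 age ratio was -1.85 (-1.91 to -1.81). miR-959-5p, from a miRNA cluster known from testis and fat body, had 190 RPM at 30 d against 561 RPM at 3 d, so its log2 age ratio was -1.56 (-1.61 to -1.51). With Ago1 their log2 ratios were -0.82 and -0.53, at levels of at most 10.8 RPM. miR-8-5p had a log2 ratio of -0.68 with Ago2 and 0.01 with Ago1, and miR-92a-3p -1.72 with Ago2 and -0.02 with Ago1, where its mean over the Ago2 libraries was under the minimum. In whole flies, fewer cells that hold a miRNA and less of it per cell cannot be told apart.

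miR-263b-5p, from a pair of miRNAs that protect sensory bristles, moved in opposite directions. It had 270 RPM with Ago2 at 30 d against 43.7 RPM at 3 d, and 28.2 RPM with Ago1 at 30 d against 75.8 RPM at 3 d. The log2 age ratio was 2.60 (2.51 to 2.75) with Ago2 and -1.39 (-1.55 to -1.30) with Ago1, where its mean was under the minimum. miR-210-3p had a log2 age ratio of 1.01 with Ago1 and 0.13 with Ago2. miR-252-5p had 0.69 with Ago2, or 1.05 by TMM, and 0.00 with Ago1, and miR-10-3p 0.37 with Ago2 and -0.54 with Ago1.

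At the level of single sequences, short end forms stood among the highest age ratios. With Ago2 the highest after miR-263b-5p of 23 nt, at 2.56, were miR-252-5p of 20 nt at 1.62, miR-305-3p of 20 nt at 1.26, miR-252-5p of 23 nt at 1.05 and miR-284-5p of 24 nt at 1.03. With Ago1 they were miR-305-3p of 21 nt at 1.94, miR-11-3p of 20 nt at 1.15 and miR-210-3p of 21 nt at 1.11, while the 2 next forms of miR-305-3p reached 0.73 and 0.60. The lowest with Ago1 were miR-210-3p of 23 nt at -1.10, miR-34-3p of 23 nt at -0.92, miR-10-3p of 23 nt at -0.74, bantam-5p of 23 nt at -0.70 and miR-11-3p of 22 nt at -0.58. After miR-985-3p and miR-959-5p, the lowest with Ago2 were miR-8-5p of 22 nt at -0.71, miR-275-5p of 23 nt at -0.66 and miR-184-5p of 22 nt at -0.40.

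**Figure D5:**
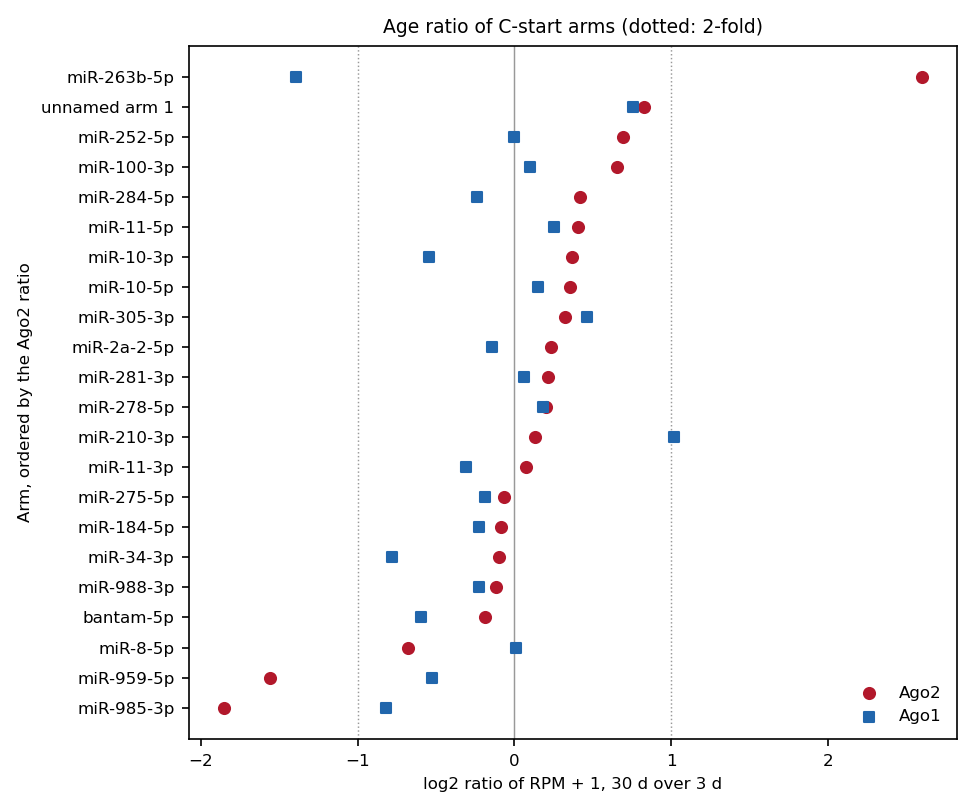
log2 ratio of RPM + 1 at 30 d over 3 d (x axis) for the 22 arms averaging 100 RPM or more over the 4 libraries (y axis, ordered by the Ago2 ratio), circles for Ago2 and squares for Ago1, dotted lines at 2-fold. miR-263b-5p at the top lies at 2.60 with Ago2 and -1.39 with Ago1, and miR-985-3p at the bottom at -1.85 and -0.82.

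The upper limit of 24 nt left out most reads of 1 arm, miR-284-5p, whose main forms are 25 and 26 nt long and come from 3R.
miR-284-5p, 24 nt: cCTGGAATtaagttgactgtgtag
miR-284-5p, 25 nt: cCTGGAATtaagttgactgtgtagc
miR-284-5p, 26 nt: cCTGGAATtaagttgactgtgtagcc
C-start reads of 24 nt summed to 590 and 344 RPM with Ago2 at 30 d and 3 d and to 351 and 390 RPM with Ago1. Those of 25 nt summed to 16885 and 15709 RPM with Ago2 and to 271 and 671 RPM with Ago1. Those of 26 nt were lower at 30 d, at 11675 against 23898 RPM with Ago2 and 85.5 against 178 RPM with Ago1. At the lower limit, reads of 20 nt summed to 1772 and 938 RPM with Ago2 and 1275 and 685 RPM with Ago1, and those of 19 nt to 1132 and 354 RPM with Ago2 and 244 and 178 RPM with Ago1.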

How the data were processed

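Small RNAs bound to tagged Ago2 or to Ago1 were sequenced from whole male flies, with 1 library per group. The authors deposited raw read counts per distinct sequence, as whole numbers without normalization. Libraries came from the TruSeq small RNA kit, per the labels' protocols. The submitters' processing notes name Bowtie, CASAVA 1.8.2 and the genome build dm3. The sources used here do not give adapter trimming, alignment settings or filters, so totals are those of the listed reads. No separate cultures or animals are named that would serve as replicates.

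A sequence can stand on more than 1 line with the same count and was counted once. Among C-start sequences this held for 9, 6, 11 and 11 sequences with Ago2 at 30 d and 3 d and Ago1 at 30 d and 3 d, with 0.0248%, 0.0211%, 1.62% and 1.53% of their reads. Counts were divided by the listed reads to give RPM (Python 3.11.15, pandas 2.3.3). Ratios of sequences and arms are log2(RPM + 1) with no test, which leaves the ratio of low sequences understated. Ratios of reads summed by first base have no pseudocount. A sequence or arm was called at 2-fold or more, among those averaging 100 RPM or more over the libraries compared. A member rare in either library passes through the other alone, and its call is then fixed by this minimum. Ratios have exact conditional binomial intervals of the raw counts (scipy 1.17.1) without the pseudocount, and shares have Wilson intervals. The interval of the age difference of the Ago2 over Ago1 ratio is a normal approximation from the counts. All are 95% and leave out every error but counting, and PCR copies are not separate molecules. For a sequence with no read in a library, a count of 0 allows up to 3 reads, or 0.0868 to 0.222 RPM. TMM factors came from edgeR 4.0.16. The counting steps were tested on simulated data.

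Sequences were joined into arms under the most abundant sequence, with an exact overlap of at least 14 nt, a start shift of at most 8 nt and an end shift of at most 10 nt. Near-identical hairpin copies were kept apart by sequence alone, so a short form common to copies can belong to either. Sequences printed are those deposited. No table of mature miRNA sequences and no genome sequence was used here. Names were recalled and attached with the files already open, so the planned match to a reference could be made by name and length alone. Chromosome arms were looked up by that name in the Ensembl annotation of a later build, and no coordinates are given. Of 28 C-led names, all 28 had an annotated arm, 22 one of the same length and 26 one within 1 nt. Named arms held 98.8%, 99.1%, 99.8% and 99.7% of the C-start reads in the order above.

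The text names the 10 most abundant C-start sequences, the 5 highest and 5 lowest ratios of each comparison and members of 2 lists. The members and lists were chosen with earlier results of these data known.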

Additional observations from a re-analysis of the deposited data

Results flagged for a closer look

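miR-263b-5p drew attention because its C-start reads moved at least 2-fold in opposite directions with age in the 2 immunoprecipitates. Its log2 age ratio was 2.60 with Ago2 and -1.39 with Ago1, a difference of 3.99. With 1 library per group the difference was not tested. It rests on 9331 and 590 reads with Ago2 at 30 d and 3 d and on 747 and 2019 reads with Ago1.

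C-start reads of 25 nt or more lie outside the length range described and were used in no comparison. They summed to 29406 and 40657 RPM with Ago2 at 30 d and 3 d, against 359 and 854 RPM with Ago1. miR-284-5p made up 99.9% of them in each Ago2 library, and 97.3% and 98.5% in the Ago1 libraries of 30 d and 3 d. All these values exceed the 3 reads that a count of 0 allows.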

How the results depend on the processing

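No paired analysis was possible because each group has 1 library, and for the same reason no library could be left out. Of 112 values recomputed for 17 results, 31 stayed within the limits set (the 95% counting interval of a ratio or length, 1.5 times for a count) and 81 did not; the intervals are narrow at these depths, so small shifts pass them. Values follow in the order Ago2 over Ago1 at 30 d, the same at 3 d, 30 d over 3 d with Ago2, 30 d over 3 d with Ago1, and the age difference of the Ago2 over Ago1 ratio. The log2 level of the C-start reads was -0.02, -0.07, 0.02, -0.03 and 0.05 as reported. Without the miR-263a-5p arm in the total it was 1.07, 0.81, 0.22, -0.046 and 0.26, with TMM 1.13, 0.84, 0.38, 0.10 and 0.28, and with the median of ratios 1.04, 1.16, -0.033, 0.089 and -0.12. With all listed lengths it was 0.56, 0.65, -0.13, -0.035 and -0.098, with 21 to 23 nt -0.041, -0.075, -0.0050, -0.039 and 0.034, and without the most abundant C-start sequence -0.034, -0.27, 0.20, -0.031 and 0.24. Per reads of 20 to 24 nt it was 0.075 and -0.00018 for the proteins, 0.051 for age with Ago2 and 0.075 for the age difference. Repeated lines gave -0.035 and -0.078 for the proteins. Thus the sign of the Ago2 over Ago1 level depends on the total it is divided by and on the length range.

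The counts of higher sequences, in the same order, were 18, 17, 5 and 3 of 37, 35, 37 and 30 tested. They were 41, 37, 14 and 7 of 87, 85, 85 and 69 with a minimum of 10 RPM. With no minimum they were 96, 88, 27 and 11 of 640, 588, 591 and 524. Over arms they were 11 of 22 at 3 d, 1 of 20 with Ago2 and 1 of 16 with Ago1, against 25%, 12.9% and 2.47% of all arms. By TMM the counts of sequences were 34 of 44 at 30 d and 9 of 40 with Ago2. By the median of ratios they were 32 of 43, 27 of 37 and, with Ago2, 3 of 40. The counts of lower sequences, 9, 10, 2 and 1, were 26, 28, 6 and 4 with 10 RPM and 45, 46, 14 and 8 with no minimum, of the same numbers tested. Over arms they were 5 of 21, 5 of 22 and, with Ago1, 0 of 16, against 61.6%, 61.4% and 1.23% of all arms. For sequences they were 0 with Ago1 by TMM and by the median of ratios, and 6 at 3 d by the median of ratios. Shares over all first bases were not computed with 10 RPM or with no minimum. The mean length difference, 0.25, 0.086, -0.073 and -0.24 nt, was 0.29, 0.14, -0.12 and -0.28 without the most abundant C-start sequence and 1.21, 1.39, -0.45 and -0.26 with all lengths. It was 0.27, 0.099, -0.052 and -0.22 with 21 to 23 nt, and 0.24, 0.079 and, with Ago1, -0.24 with repeated lines; its sign held in each. At the other end of depth, 320 of the 760 sequences had at most 3 reads in total and carry no usable ratio. The cause was not tested where the setting itself does not show it.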

Other observations

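Several C-start arms under 100 RPM differed between the libraries as well. miR-981-5p had 96.8 and 25.5 RPM with Ago2 at 30 d and 3 d, against 11.5 and 9.24 RPM with Ago1. It was mostly 21 nt long with Ago2, at 84.9% and 68.0% of its reads, and 22 nt long with Ago1, at 96.7% and 95.9%. let-7-3p, the partner of the guide let-7-5p, had 50.2 and 38.99 RPM with Ago2, against 0.718 and 0.901 RPM with Ago1. miR-277-5p, the partner of a guide that acts on amino acid breakdown genes, had 29.5 and 44.0 RPM with Ago2 and 30.0 and 71.6 RPM with Ago1. The last strands of the passenger list, miR-2a-1-5p and miR-7-3p, were rare, at 5.47 and 3.34 RPM with Ago2 against 0.718 and 1.01 RPM with Ago1 for miR-2a-1-5p, and 2.98 and 0.519 RPM against 0.643 and 1.28 RPM for miR-7-3p. An unnamed C-start arm had 86.4 and 42.9 RPM with Ago2, against 2.08 and 0.601 RPM with Ago1.

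The C-start reads of miR-956-3p, an arm that otherwise starts with T and leads the T-start reads of all 4 libraries, had 116 and 66.9 RPM with Ago2 at 30 d and 3 d, against 64.4 and 70.3 RPM with Ago1. They were 0.0740% and 0.0272% of its reads with Ago2, and 0.0330% and 0.0406% with Ago1. miR-981-5p, miR-956-3p and the unnamed arm were chosen after their values had been seen.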
